A study of Mus musculus with 14 samples.

Results

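Central carbon metabolism was followed through 49 listed enzyme and transporter genes, in hepatic stellate cells (HSCs) that were isolated from the livers of BalbC mice (Balb/cByJ in the study's methods) and became activated in culture. A gene was taken up when a probe set of the array was paired with its symbol and no other, and where several probe sets carried the symbol, the one with the highest mean level over all arrays was used. This found 46 of the 49 genes, out of 19938 genes with a symbol of their own. Gpi1, Eno1 and G6pdx were not analysed here. Of the 46, 14 act in glucose uptake and glycolysis, 4 in lactate handling, 6 in the entry of pyruvate into the mitochondrion, 11 in the citrate cycle, 6 on citrate, isocitrate and malate outside the cycle, and 5 in the pentose phosphate pathway.

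HSCs are the vitamin A-storing cells around the liver sinusoids, and on activation they turn into contractile, collagen-producing myofibroblast-like cells. Cells from separate isolations were plated in medium with serum, freed of unattached cells by washing, and either treated from that moment with valproic acid (VPA), an inhibitor of histone deacetylases, or left untreated. The 5 groups take their names from treatment and hours after washing. VPA4h and VPA64h received 2.5 mM VPA and have 3 samples each, Ctrl4h and Ctrl64h are untreated with 3 samples each, Ctrl16h is untreated with 2, and each of the 14 samples was run on its own Affymetrix Mouse Gene 1.0 ST array. Cells before plating and VPA-treated cells at 16 h were not analysed here, so the earliest level is that of Ctrl4h.

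Glycolysis splits glucose into pyruvate in the cytosol, with hexokinase, phosphofructokinase and pyruvate kinase as its controlled steps. Pyruvate is then reduced to lactate and exported, or enters the mitochondrion, where pyruvate dehydrogenase turns it into the acetyl group that the citrate cycle oxidises. The pentose phosphate pathway branches off after hexokinase, and yields NADPH and the ribose of nucleotides. Activated HSCs are known for a shift towards glycolysis and lactate formation.

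Levels were deposited as log2 values made by RMA (robust multi-array average), a method that subtracts background, equalises the distributions of the arrays and summarises the probes of a probe set. A difference of 1 on this scale is a change of 2-fold, and it says how a gene moved against the rest of the array. A single limma fit covered the 5 groups, and a gene is said to have risen or fallen when its p-value, adjusted by Benjamini-Hochberg over all 23410 probe sets with a gene symbol, was under 0.05. The standard deviation within groups was between 0.05 and 0.21 for the 46 genes, with a median of 0.11. Each level belongs to its own probe set, and levels of different genes were not set against each other.

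The arrays were alike in depth of signal, with medians between 6.34 and 6.41, and correlated at 0.993 to 0.995 within groups and at 0.939 to 0.986 between groups. Of 13 stellate markers 7 rose and 4 fell in Ctrl64h against Ctrl4h. The activation markers Acta2 and Lox rose by 2.83 and 3.43 and the intermediate filament gene Des by 1.96, Pdgfrb, a growth factor receptor, differed by -0.13 ± 0.09, and Reln, of the matrix, and Ngfr, a neurotrophin receptor, fell by 1.58 and 1.56, to means of 10.72 and 6.59 in Ctrl64h against 12.29 and 8.14 in Ctrl4h. Gfap, an astrocyte protein also used as a marker of quiescent stellate cells, had group means between 5.13 and 5.68, under the medians of the arrays. Markers of other liver cells moved as well: 5 of 12 hepatocyte genes fell in Ctrl64h against Ctrl4h and none rose (Alb, serum albumin, by 1.03), 7 of 12 sinusoidal endothelial genes fell and 1 rose, 4 of 11 Kupffer cell genes and 4 of 9 lymphocyte genes fell and none rose. Of all tested probe sets 25% rose and 31.6% fell in that comparison. The mean log2 level over the hepatocyte list ranged from 5.38 to 5.79 in Ctrl64h and from 5.71 to 6.19 in Ctrl4h, that over the endothelial list from 6.45 to 6.72 and from 6.81 to 7.06. For the Kupffer cell list these ranges were 6.02 to 6.37 in Ctrl64h and 5.96 to 6.43 in Ctrl4h, and for the lymphocyte list 4.88 to 5.13 and 5.48 to 5.70. RMA levels have no zero, so no marker can be called absent, and the part of these cells in the changes below was not tested. In RNA from a whole culture, fewer cells of one type and less RNA per cell cannot be told apart.

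**Figure D1:**
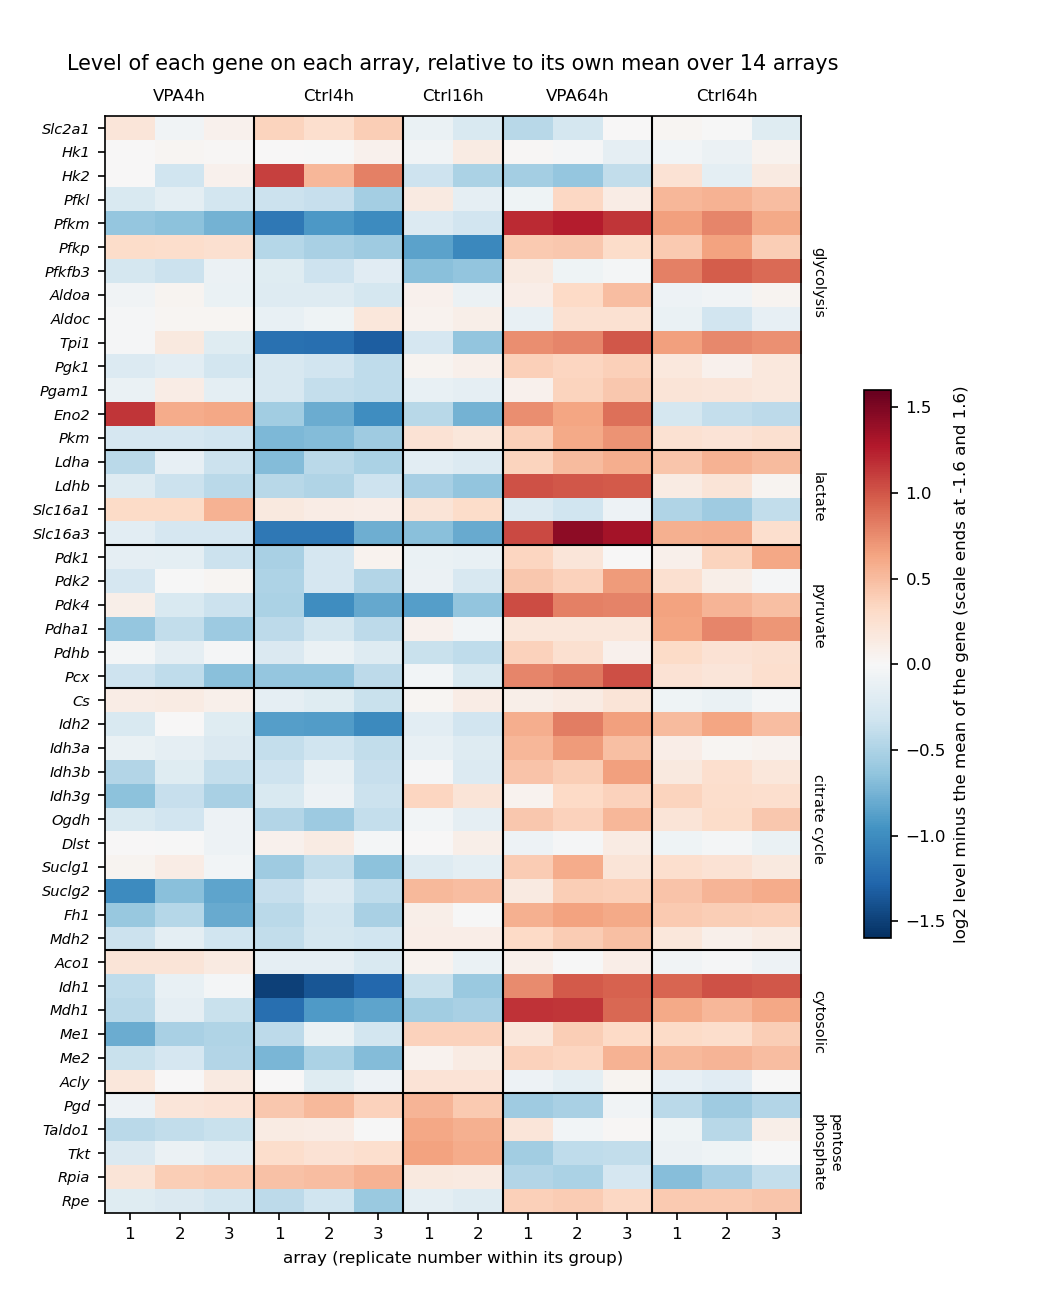
Rows are the 46 genes in 6 functional groups, columns the 14 arrays, and the colour is the log2 level on that array minus the gene's own mean over all arrays. The VPA64h and Ctrl64h arrays are mostly red and the Ctrl4h arrays mostly blue, with Hk2, Slc2a1, Slc16a1, Pgd and Rpia among the genes of the opposite pattern.

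The first question was how these genes behaved while untreated cells activated. After 64 h most of them stood higher than after 4 h: 32 of 46 rose and 6 fell in Ctrl64h against Ctrl4h, against 25% and 31.6% of all tested probe sets that rose and fell, and 56.7% that did either. The median difference of the 46 was 0.54, that of all tested probe sets was -0.09, and the range ran from -1.04 for Rpia to 2.36 for Idh1. At least 2-fold changes were reached by 11 genes upwards (Pfkm, Pfkfb3, Tpi1, Ldha, Slc16a3, Pdk4, Pdha1, Idh2, Idh1, Mdh1 and Me2) and by 1 downwards (Rpia), where 6.68% and 3.71% of all probe sets did so (10.4% together). The arrays of Ctrl64h and Ctrl4h did not overlap for 41 of the 46 genes, which was the case for 61.9% of all probe sets. Here and below, such shares are over probe sets of every level. Most of the 46 genes had means above the array medians of 6.34 to 6.41, and shares among probe sets of like level were not counted.

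Both parts of this period contributed. In Ctrl16h against Ctrl4h 24 genes rose and 5 fell (12.8% and 7.32% of all probe sets, 20.1% together), with a median of 0.30 beside -0.01 for all, and at 2-fold or more none rose and Hk2 fell (0.705% and 1.21%, 1.91% together). In Ctrl64h against Ctrl16h 25 rose and 6 fell (19.2% and 23.9%, 43.1% together), with a median of 0.32 beside -0.07, and at 2-fold or more 7 rose (Pfkp, Pfkfb3, Tpi1, Slc16a3, Pdk4, Idh1 and Mdh1) and none fell (4.52% and 2.08%, 6.6% together). In this second interval 5 of 11 Kupffer cell genes rose and 1 fell, among them Lyz2 and Ctss, a lysozyme and a protease of macrophages, with means of 9.03 and 8.21 in Ctrl64h against 7.24 and 7.09 in Ctrl16h, and the mean log2 level over that list was 6.02 to 6.37 in Ctrl64h and 5.77 to 5.79 in Ctrl16h. Their part in the changes was not tested. The 2 comparisons share the Ctrl16h arrays, so their values are given side by side without a count in common. Only 2 arrays represent Ctrl16h, and without Ctrl16h replicate 1 the first comparison had 13 genes past the test in place of 29.

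Such directions hold against the rest of the array, and those of the first interval depended on the scale. When each array was centred on the mean of 11 housekeeping genes, 32 of the 46 genes rose and 6 fell in Ctrl64h against Ctrl4h, as without centring, but 9 rose and 7 fell in Ctrl16h against Ctrl4h, where the median of the 46 was 0.11 and that of all probe sets -0.20. Centred on the median level of the housekeeping genes, which was that of Rplp0 on 8 arrays and of Ywhaz on 6, 20 rose and 12 fell over the whole period (median 0.17) and 7 rose and 13 fell in the first interval (median -0.12), with all probe sets at -0.46 and -0.43. Centred on a probe set of Gapdh, itself a glycolytic gene, 17 rose and 14 fell over the whole period (median -0.02) and 6 rose and 14 fell in the first interval (median -0.12), with all probe sets at -0.65 and -0.43. Centring moves all genes by one amount, so the distance between the 46 genes and the rest of the array stayed as it was. Below, these last 2 settings are called Rplp0/Ywhaz centring and Gapdh centring.

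**Figure D2:**
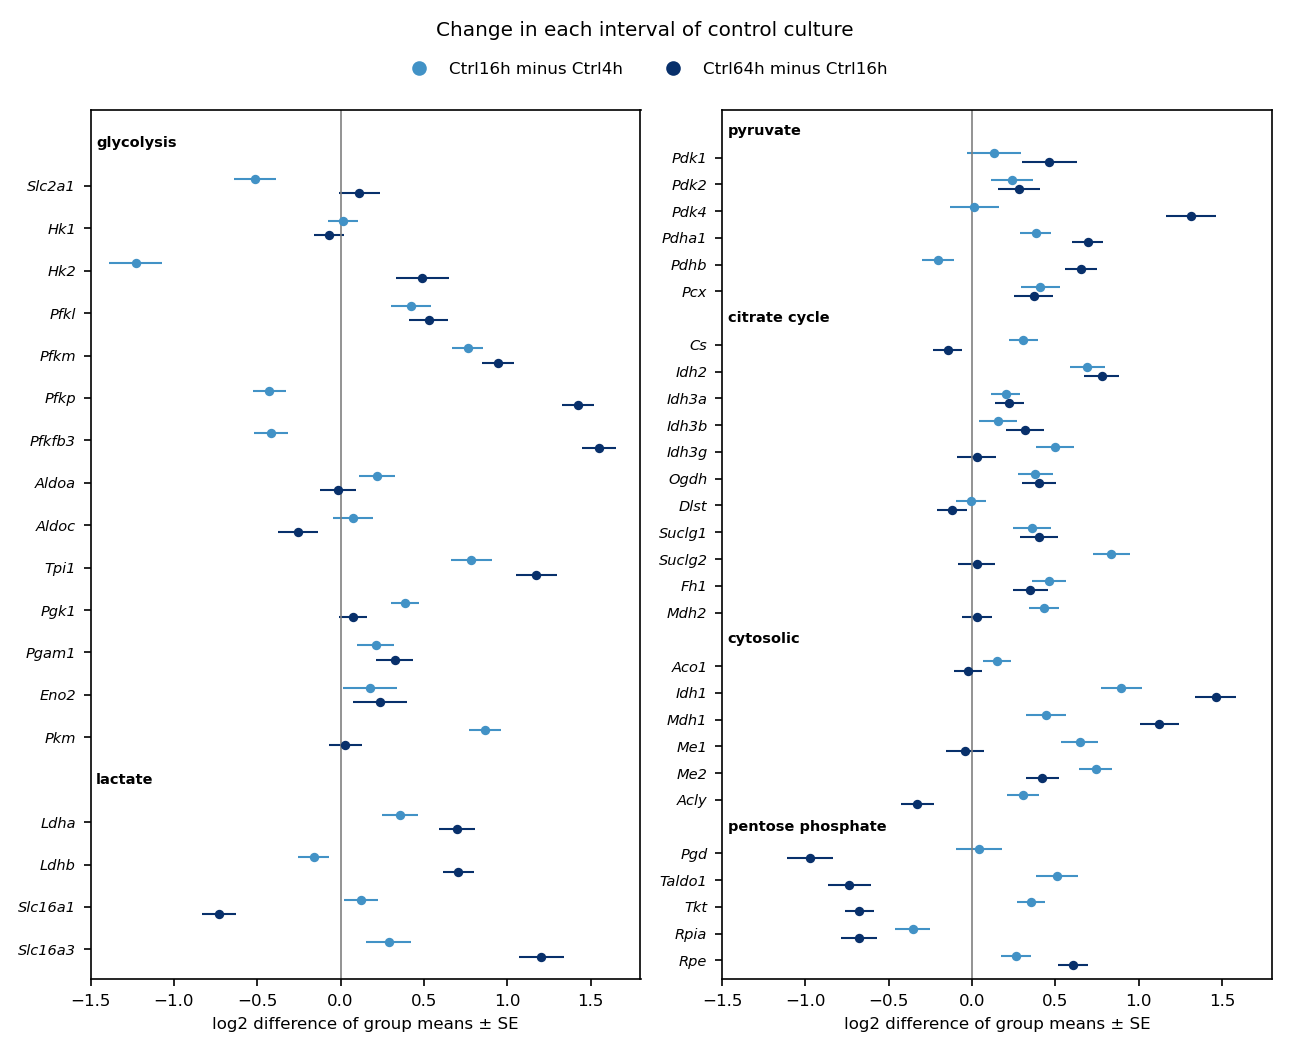
Points give the log2 difference of group means and bars its standard error, for the first interval (Ctrl16h minus Ctrl4h, light blue) and the second (Ctrl64h minus Ctrl16h, dark blue). Hk2, Pfkp and Pfkfb3 lie left of 0 in the first interval and right of 0 in the second, while Taldo1 and Tkt lie the other way round.

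Glycolysis showed isozymes and regulators with different courses. Hk2, the inducible hexokinase, stood at 9.56, 8.99 and 9.27 in Ctrl4h, 8.13 and 7.95 in Ctrl16h and 8.69, 8.30 and 8.61 in Ctrl64h. It was lowest at 16 h, and neither later group reached the Ctrl4h arrays. The difference was -1.23 ± 0.16 (SE, adjusted p = 4.55e-05) in the first interval and 0.49 ± 0.16 (adjusted p = 0.0206) in the second, with -0.74 between Ctrl64h and Ctrl4h (adjusted p = 0.000379). The second of these rested on single arrays: its adjusted p was 0.154 without Ctrl16h replicate 2, 0.0698 without Ctrl64h replicate 1 and 0.0564 without Ctrl64h replicate 3. Hk1, the hexokinase of most cells, differed by -0.05 ± 0.08 between Ctrl64h and Ctrl4h (adjusted p = 0.59).

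Pfkp, the platelet isoform of phosphofructokinase, had levels of 9.22, 9.16 and 9.11 in Ctrl4h, 8.82 and 8.65 in Ctrl16h and 10.09, 10.32 and 10.07 in Ctrl64h. Pfkfb3, the enzyme that makes the fructose bisphosphate by which phosphofructokinase is activated, had 8.25, 8.11 and 8.27 in Ctrl4h, 7.77 and 7.81 in Ctrl16h and 9.25, 9.41 and 9.35 in Ctrl64h. For both, the 3 groups were separate, with 16 h lowest and 64 h highest. Pfkp changed by -0.43 ± 0.10 and then by 1.42 ± 0.10 (SE, adjusted p = 0.00449 and 2.01e-08), and Pfkfb3 by -0.42 ± 0.10 and 1.55 ± 0.10 (adjusted p = 0.00738 and 1.42e-08). The early decrease of Pfkp was not past the test without Ctrl16h replicate 2 (-0.34, adjusted p = 0.0811), nor that of Pfkfb3 without Ctrl16h replicate 1 (-0.40, adjusted p = 0.0714). Slc2a1, the widespread glucose transporter, fell by 0.51 in the first interval (adjusted p = 0.00689, 0.0821 without Ctrl16h replicate 2) and was still lower in Ctrl64h than in Ctrl4h, at -0.40 (adjusted p = 0.00598).

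Further phosphofructokinase genes rose in both intervals. Pfkm, the muscle isoform, had 6.67, 6.89 and 6.80 in Ctrl4h, 7.59 and 7.50 in Ctrl16h and 8.47, 8.59 and 8.41 in Ctrl64h, a separate level for each time. It was 3.26-fold higher in Ctrl64h than in Ctrl4h (adjusted p = 2.02e-10). Pfkl, the liver isoform, rose by 0.42 and 0.53 (adjusted p = 0.0183 and 0.002). Its first step was not past the test without Ctrl16h replicate 1 (0.28, adjusted p = 0.282) or Ctrl4h replicate 3 (0.36, adjusted p = 0.0736), nor its second without Ctrl16h replicate 2 (0.38, adjusted p = 0.0553).

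Of the 14 glycolysis genes Tpi1, which interconverts the triose phosphates, changed most over the whole period. It stood at 9.27, 9.26 and 9.15 in Ctrl4h, 10.20 and 9.83 in Ctrl16h and 11.12, 11.24 and 11.20 in Ctrl64h, so that each time was separate from the others. Its level in Ctrl64h was 3.89-fold that in Ctrl4h (1.96 ± 0.11, adjusted p = 6.86e-10). Pkm, the pyruvate kinase of most tissues, rose by 0.87 (adjusted p = 1.21e-05) in the first interval and differed by 0.03 ± 0.10 in the second (adjusted p = 0.835). Pgk1, a kinase that yields ATP, rose by 0.39 (adjusted p = 0.0032, turned to -0.032 and -0.035 with Rplp0/Ywhaz and Gapdh centring) and differed by 0.07 ± 0.08. Pgam1, a mutase, rose by 0.54 over the whole period (adjusted p = 0.000287), turned to -0.021 with Gapdh centring. Eno2, the neuronal isoform of enolase, had 7.36 and 7.05 in Ctrl16h and rose by 0.41 over the whole period (adjusted p = 0.0228, turned to -0.14 with Gapdh centring), which was not past the test without Ctrl4h replicate 2 (0.0554), Ctrl4h replicate 3 (0.114) or Ctrl64h replicate 1 (0.0697). Aldoa, an aldolase, differed by 0.20 ± 0.10 (adjusted p = 0.0837) and Aldoc, its brain relative, by -0.18 ± 0.11 (adjusted p = 0.158), and neither was past the test in any comparison of untreated cells. Of the 14 glycolysis genes, 9 rose and 2 fell over the whole period, beside 25% and 31.6% of all tested probe sets. The median of the 14 was 0.50, which was 0.49 when centred on the housekeeping mean, 0.13 with Rplp0/Ywhaz centring and -0.06 with Gapdh centring.

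The promoters of 5 of these genes are shown because they follow the main courses in culture: Hk2 and Pfkfb3, which were lowest at 16 h, Ldha and Slc16a3, which make and export lactate, and Tpi1, which rose most among the 14 listed glycolysis genes. The windows span 250 bases before and 50 after the annotated start (RefSeq, GRCm38.p6), written 5′ to 3′ on the strand of the gene. Capitals mark ACGTG (the core of a hypoxia response element), CACGTG (the E-box bound by Myc and its relatives, which holds ACGTG on both strands) and CCAAT, each on either strand. Ldha is shown with the one of its 2 windows that holds a match.
Hk2 chr6:82774405-82774704, minus strand: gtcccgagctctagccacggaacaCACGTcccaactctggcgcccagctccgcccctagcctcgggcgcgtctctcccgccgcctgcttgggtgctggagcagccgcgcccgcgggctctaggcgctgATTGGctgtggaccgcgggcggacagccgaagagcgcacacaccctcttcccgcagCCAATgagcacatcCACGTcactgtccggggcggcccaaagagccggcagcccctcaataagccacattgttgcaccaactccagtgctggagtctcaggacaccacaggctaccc
Pfkfb3 chr2:11502041-11502340, minus strand: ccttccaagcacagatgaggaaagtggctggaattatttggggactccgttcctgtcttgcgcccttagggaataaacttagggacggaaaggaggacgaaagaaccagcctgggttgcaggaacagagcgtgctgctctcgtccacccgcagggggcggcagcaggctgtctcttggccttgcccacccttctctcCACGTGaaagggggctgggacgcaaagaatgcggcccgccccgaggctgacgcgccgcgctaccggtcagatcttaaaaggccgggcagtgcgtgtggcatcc
Pfkfb3 chr2:11553880-11554179, minus strand: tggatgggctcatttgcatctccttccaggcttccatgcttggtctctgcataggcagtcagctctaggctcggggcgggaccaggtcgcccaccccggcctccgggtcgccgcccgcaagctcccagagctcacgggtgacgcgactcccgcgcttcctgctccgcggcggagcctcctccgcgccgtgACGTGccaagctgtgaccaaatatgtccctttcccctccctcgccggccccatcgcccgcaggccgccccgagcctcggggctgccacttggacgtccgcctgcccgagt
Ldha chr7:46845554-46845853, plus strand: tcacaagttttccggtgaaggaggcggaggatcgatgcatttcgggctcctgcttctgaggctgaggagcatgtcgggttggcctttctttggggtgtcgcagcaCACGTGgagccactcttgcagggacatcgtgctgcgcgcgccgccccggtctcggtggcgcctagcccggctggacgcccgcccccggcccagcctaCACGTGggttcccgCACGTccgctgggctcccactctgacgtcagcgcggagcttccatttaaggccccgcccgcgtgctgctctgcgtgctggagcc
Slc16a3 chr11:120948817-120949116, plus strand: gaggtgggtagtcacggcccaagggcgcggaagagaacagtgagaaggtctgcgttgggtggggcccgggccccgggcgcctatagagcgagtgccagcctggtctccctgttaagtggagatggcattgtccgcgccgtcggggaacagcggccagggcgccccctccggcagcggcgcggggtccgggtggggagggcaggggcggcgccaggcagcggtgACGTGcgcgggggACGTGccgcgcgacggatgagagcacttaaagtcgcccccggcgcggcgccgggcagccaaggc
Tpi1 chr6:124814109-124814408, minus strand: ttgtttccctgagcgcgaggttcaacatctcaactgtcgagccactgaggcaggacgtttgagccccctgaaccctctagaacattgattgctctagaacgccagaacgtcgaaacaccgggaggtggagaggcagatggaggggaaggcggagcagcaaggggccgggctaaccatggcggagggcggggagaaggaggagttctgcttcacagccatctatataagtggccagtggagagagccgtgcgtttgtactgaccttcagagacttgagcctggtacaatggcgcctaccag

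Hk2 held ACGTG 2 times and CCAAT 2 times, the first Pfkfb3 window held CACGTG 1 time and the second ACGTG 1 time, Ldha held CACGTG 2 times and ACGTG 1 time more, and Slc16a3 held ACGTG 2 times. Tpi1 held none of the 3. Promoters were found for 44 of the 46 genes, 65 windows in all, since some genes have more than 1 annotated start. ACGTG occurred in 44.6% of these windows and in 19.6% of all 32851 windows of the table, CACGTG in 13.8% and 7.15%, and CCAAT in 47.7% and 37.4%. Windows of 1 gene can overlap, as several of Ogdh do, so they are not independent. Counted by gene, 21 of the 44 held ACGTG, 7 CACGTG and 24 CCAAT, and the shares by gene over the whole table were not counted. The windows of the carbon metabolism genes were also richer in G and C, with a median of 61.0% beside 52.7% for all. A match is a description of the letters, and says nothing of a factor binding there.

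Genes of lactate handling split into transporters that went opposite ways. Slc16a3, the exporter of lactate from glycolytic cells, had 7.08, 7.08 and 7.44 in Ctrl4h, 7.56 and 7.42 in Ctrl16h and 8.79, 8.80 and 8.49 in Ctrl64h. Its Ctrl4h and Ctrl16h arrays overlapped and all Ctrl64h arrays lay above them, with 1.20 ± 0.13 in the second interval (adjusted p = 3.69e-06) and 2.81-fold over the whole period. Slc16a1, the monocarboxylate transporter that serves uptake and export alike, fell by 0.73 in the second interval (adjusted p = 3.3e-05), to a mean of 8.23 ± 0.09 in Ctrl64h against 8.96 ± 0.06 in Ctrl16h (SD, n = 3 and 2). Ldha, the lactate dehydrogenase subunit that favours lactate formation, had 11.03, 11.29 and 11.21 in Ctrl4h, 11.56 and 11.50 in Ctrl16h and 12.17, 12.27 and 12.23 in Ctrl64h. The 3 times were separate, and the level in Ctrl64h was 2.07-fold that in Ctrl4h (adjusted p = 1.82e-07). The first part of that increase, 0.35, was not past the test without Ctrl4h replicate 1 (adjusted p = 0.106), Ctrl4h replicate 3 (0.0503), Ctrl16h replicate 1 (0.18) or Ctrl16h replicate 2 (0.0952), and turned to -0.062 and -0.066 with Rplp0/Ywhaz and Gapdh centring. Ldhb, the subunit that favours pyruvate, had 6.33, 6.29 and 6.44 in Ctrl4h and 6.24 and 6.14 in Ctrl16h. It rose by 0.55 over the whole period (adjusted p = 3.8e-05), but this turned to -0.011 with Gapdh centring and its second probe set gave 0.32 with an adjusted p of 0.17.

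All 6 genes that govern the entry of pyruvate into the mitochondrion rose in Ctrl64h against Ctrl4h, inhibitors and enzymes alike, where 25% of all tested probe sets rose. With Gapdh centring, though, Pdk2 and Pdhb turned to -0.036 and -0.11. The median of the 6 was 0.69, and the values ran from 0.45 for Pdhb to 1.33 for Pdk4. Pdk4, one of the kinases that shut down pyruvate dehydrogenase, had 6.78, 6.29 and 6.46 in Ctrl4h, 6.40 and 6.64 in Ctrl16h and 7.92, 7.83 and 7.77 in Ctrl64h. The Ctrl16h and Ctrl4h arrays overlapped and the Ctrl64h arrays lay above both, with a difference of 0.01 ± 0.15 in the first interval (adjusted p = 0.969) and an increase in the second (1.31 ± 0.15, adjusted p = 4.18e-06). Pdha1, which encodes a catalytic subunit of pyruvate dehydrogenase, had 9.99, 10.13 and 9.99 in Ctrl4h, 10.48 and 10.36 in Ctrl16h and 11.04, 11.18 and 11.11 in Ctrl64h, separate at each time. It was 2.11-fold higher in Ctrl64h than in Ctrl4h (adjusted p = 2.53e-08). The kinase genes Pdk1 and Pdk2 rose by 0.60 and 0.52 (adjusted p = 0.00277 and 0.000967), and Pcx, whose enzyme refills the citrate cycle from pyruvate, by 0.78 (adjusted p = 1.08e-05). Pcx had 6.22, 6.23 and 6.43 in Ctrl4h and 6.80 and 6.60 in Ctrl16h, and did not overlap between the times.

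Of the 11 citrate cycle genes 9 rose and none fell in Ctrl64h against Ctrl4h, beside 25% and 31.6% of all tested probe sets. The median of the 11 was 0.53, which was 0.51 when centred on the housekeeping mean, 0.16 with Rplp0/Ywhaz centring and -0.03 with Gapdh centring. The largest change was that of Idh2, the NADP-linked isocitrate dehydrogenase of the mitochondrion, with 7.61, 7.59 and 7.47 in Ctrl4h, 8.32 and 8.18 in Ctrl16h and 8.98, 9.12 and 8.98 in Ctrl64h. The times were separate, the steps 0.69 and 0.78, and the level in Ctrl64h was 2.77-fold that in Ctrl4h (adjusted p = 2.71e-09). The subunits of the NAD-linked enzyme, Idh3a, Idh3b and Idh3g, rose by 0.43, 0.47 and 0.53, and turned to -0.13, -0.083 and -0.031 with Gapdh centring. Suclg2 and Suclg1, the beta and alpha subunits of succinyl-CoA ligase, rose by 0.86 and 0.76, Fh1 (fumarase) by 0.81, Ogdh (of the oxoglutarate dehydrogenase complex) by 0.78 and Mdh2 (malate dehydrogenase) by 0.46, which turned to -0.097 with Gapdh centring. Fh1 had 8.90, 9.03 and 8.80 in Ctrl4h, 9.42 and 9.32 in Ctrl16h and 9.74, 9.72 and 9.71 in Ctrl64h, separate at each time, whereas Suclg2, with 8.83 and 8.80 in Ctrl16h and 8.76, 8.86 and 8.90 in Ctrl64h, overlapped between the later groups. Suclg2, Mdh2 and Idh3g rose in the first interval (0.84, 0.43 and 0.50, the last with an adjusted p of 0.0815 without Ctrl16h replicate 1) and differed by 0.03 each in the second, where none was past the test. Cs, the citrate synthase at the head of the cycle, and Dlst, a partner of Ogdh, were the other two, at 0.16 ± 0.08 and -0.13 ± 0.08 (adjusted p = 0.0868 and 0.201).

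The largest change of all 46 genes was that of Idh1, the cytosolic isocitrate dehydrogenase that makes NADPH. It had 7.28, 7.41 and 7.52 in Ctrl4h, 8.41 and 8.18 in Ctrl16h and 9.71, 9.80 and 9.77 in Ctrl64h, with no overlap between times. The level in Ctrl64h was 5.13-fold that in Ctrl4h (2.36 ± 0.11, adjusted p = 8.8e-11). Mdh1, the cytosolic malate dehydrogenase of the malate-aspartate shuttle, had 8.36, 8.65 and 8.72 in Ctrl4h, 9.00 and 9.04 in Ctrl16h and 10.16, 10.09 and 10.17 in Ctrl64h, and was 2.97-fold higher after 64 h than after 4 h (adjusted p = 5.62e-09). Me2, the mitochondrial malic enzyme, had 7.06, 7.29 and 7.09 in Ctrl4h, 7.85 and 7.92 in Ctrl16h and 8.31, 8.33 and 8.28 in Ctrl64h, 2.24-fold higher (adjusted p = 2.2e-08). Both rose in each interval with separate arrays at each time, but the first step of Mdh1 (0.44) was not past the test without Ctrl4h replicate 1 (adjusted p = 0.0562), Ctrl16h replicate 1 (0.0733) or Ctrl16h replicate 2 (0.0877). The cytosolic malic enzyme Me1 rose in the first interval, by 0.65 (adjusted p = 0.000643), with -0.04 ± 0.11 in the second (adjusted p = 0.789). Acly, which cuts exported citrate into the acetyl groups of fat and sterol synthesis, rose by 0.31 in the first interval (adjusted p = 0.0335), fell by 0.33 in the second (adjusted p = 0.0125) and stood at -0.02 ± 0.09 over the whole period (adjusted p = 0.86). Both steps were lost without Ctrl16h replicate 1 (adjusted p = 0.158 and 0.0648) or Ctrl16h replicate 2 (0.137 and 0.0654), the first also without Ctrl4h replicate 2 (0.121) or Ctrl4h replicate 3 (0.0704), and the first turned to -0.11 with Rplp0/Ywhaz and with Gapdh centring. Aco1, the cytosolic aconitase, differed by 0.13 ± 0.08 over the whole period (adjusted p = 0.167).

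Of the 5 pentose phosphate genes 3 fell (Rpia, Pgd and Tkt) and 1 rose (Rpe) in Ctrl64h against Ctrl4h, beside 31.6% and 25% of all tested probe sets. The median of the 5 was -0.32, and Taldo1 differed by -0.23 ± 0.11 with overlapping arrays (adjusted p = 0.103). Rpia, which makes ribose phosphate, had 7.77, 7.80 and 7.86 in Ctrl4h, 7.46 and 7.45 in Ctrl16h and 6.63, 6.77 and 6.92 in Ctrl64h. Each time was separate and lower than the one before, and the level in Ctrl64h was 2.05-fold below that in Ctrl4h (-1.04 ± 0.10, adjusted p = 1.84e-07). Its first step (-0.36) was not past the test without Ctrl4h replicate 2 (adjusted p = 0.0545), Ctrl4h replicate 3 (0.0787), Ctrl16h replicate 1 (0.128) or Ctrl16h replicate 2 (0.122). Pgd, an NADPH-yielding dehydrogenase of the oxidative branch, differed by 0.04 ± 0.14 in the first interval and fell by 0.97 in the second (adjusted p = 3.54e-05). Tkt and Taldo1, transketolase and transaldolase of the non-oxidative branch, rose by 0.35 and 0.51 in the first interval (adjusted p = 0.0074 and 0.00857) and fell by 0.68 and 0.74 in the second (adjusted p = 1.33e-05 and 0.000233). The early increases were not past the test without Ctrl16h replicate 1 (adjusted p = 0.0791 and 0.0744) and that of Tkt turned to -0.064 and -0.067 with Rplp0/Ywhaz and Gapdh centring. Rpe, the epimerase that forms xylulose phosphate, rose by 0.87 over the whole period (adjusted p = 1.78e-07).

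**Figure D3:**
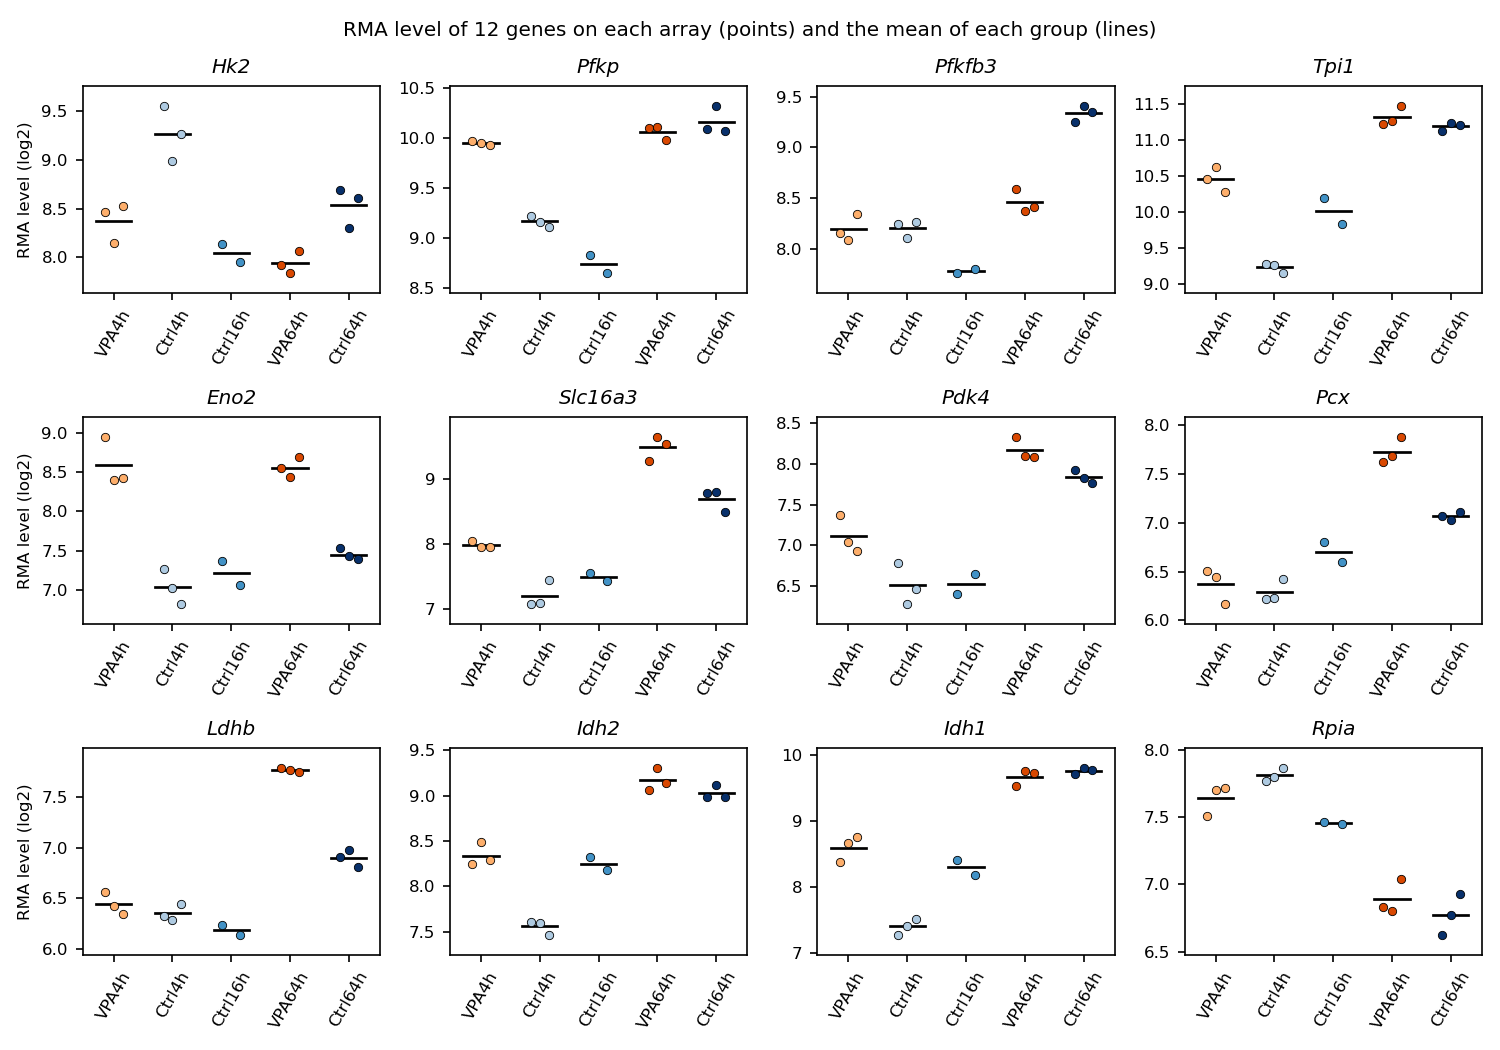
Points are the arrays and lines the group means of the RMA log2 level, for 12 genes in panels with separate scales. Pfkfb3 is lower on the VPA64h arrays (8.38 to 8.59) than on the Ctrl64h arrays (9.25 to 9.41), Tpi1, Idh2 and Idh1 are higher in VPA4h than in Ctrl4h and overlap between VPA64h and Ctrl64h, and Eno2 is higher in both VPA groups.

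The second question was what VPA changed early, within 4 h. In VPA4h against Ctrl4h 17 of the 46 genes rose and 5 fell, against 11.5% and 9.96% of all probe sets that rose and fell (21.4% together). The median was 0.19, beside -0.03 for all, 0.25 when centred on the housekeeping mean (21 rose and 4 fell), 0.41 with Rplp0/Ywhaz centring (27 rose and 2 fell) and -0.14 with Gapdh centring (7 rose and 19 fell), with all probe sets at 0.04, 0.19 and -0.36. Within these 4 h no marker list of hepatocytes, Kupffer cells or lymphocytes had a member past the test, and 1 of 12 endothelial genes rose and 1 fell. At least 2-fold changes were seen for 3 genes, Eno2, Tpi1 and Idh1, all upwards (0.867% of all probe sets rose and 0.555% fell as much, 1.42% together), and the arrays of the groups did not overlap for 32 of the 46 genes (33% of all probe sets).

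Eno2 had 8.95, 8.40 and 8.42 in VPA4h, against 7.26, 7.02 and 6.82 in Ctrl4h, with no overlap. This is 2.95-fold (1.56 ± 0.14, adjusted p = 1.27e-06). Tpi1 had 10.45, 10.62 and 10.28 in VPA4h, against 9.27, 9.26 and 9.15 in Ctrl4h, and Idh1 had 8.37, 8.66 and 8.75 in VPA4h, against 7.28, 7.41 and 7.52 in Ctrl4h. In both, all VPA4h arrays were more than 2-fold above the mean of Ctrl4h except for the lowest Idh1 array, and the mean differences were 1.22 ± 0.11 and 1.19 ± 0.11 (adjusted p = 1e-06 and 1.05e-06). Pfkp had 9.97, 9.95 and 9.93 in VPA4h, against 9.22, 9.16 and 9.11 in Ctrl4h, a difference of 0.79 ± 0.09 with little spread (adjusted p = 6.29e-06).

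Several mitochondrial and shuttle genes rose with these. Idh2 had 8.25, 8.48 and 8.29 in VPA4h, against 7.61, 7.59 and 7.47 in Ctrl4h, without overlap (0.78 ± 0.09, adjusted p = 1.38e-05). Mdh1 had 9.12, 9.41 and 9.20 in VPA4h, against 8.36, 8.65 and 8.72 in Ctrl4h (0.67 ± 0.11, adjusted p = 0.0002). Suclg1 rose by 0.58, Aco1 by 0.36 and Cs by 0.34 (adjusted p = 0.000453, 0.00204 and 0.00366). Slc16a3 had 8.05, 7.96 and 7.96 in VPA4h, against 7.08, 7.08 and 7.44 in Ctrl4h, and rose by 0.79 (adjusted p = 0.000143), and Pdk4 had 7.37, 7.04 and 6.94 in VPA4h, against 6.78, 6.29 and 6.46 in Ctrl4h, with 0.61 (adjusted p = 0.00295). Pfkm had 7.19, 7.15 and 7.06 in VPA4h, against 6.67, 6.89 and 6.80 in Ctrl4h, without overlap (0.35 ± 0.08, adjusted p = 0.00624).

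The 5 genes that fell within 4 h of VPA were Hk2, Suclg2, Me1, Taldo1 and Tkt. Hk2 had 8.46, 8.14 and 8.53 in VPA4h, against 9.56, 8.99 and 9.27 in Ctrl4h, 1.86-fold lower without overlap (adjusted p = 0.000204). Suclg2 had 7.31, 7.63 and 7.47 in VPA4h, against 7.93, 8.09 and 7.90 in Ctrl4h, with -0.51 (adjusted p = 0.00118) and -0.53 for its second probe set. This is opposite in direction to Suclg1, which encodes the partner subunit of the same ligase. Taldo1 and Tkt fell by 0.48 and 0.43 (adjusted p = 0.00522 and 0.000575). Me1 fell by 0.32 (adjusted p = 0.0333), and was not past the test without Ctrl4h replicate 2 (0.172), Ctrl4h replicate 3 (0.0674) or VPA4h replicate 1 (0.177). Pfkfb3, with 8.16, 8.09 and 8.35 in VPA4h, and Pdha1, with 9.79, 10.01 and 9.82 in VPA4h, overlapped with Ctrl4h and differed by -0.01 ± 0.09 and -0.16 ± 0.08 (adjusted p = 0.973 and 0.221). For Hk1 the 2 probe sets disagreed, with -0.0046 for the one used (adjusted p = 0.983) and 0.69 for the other, and their average rose by 0.34 (adjusted p = 0.00321).

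At 64 h the question was whether cells kept with VPA differed from untreated ones. In VPA64h against Ctrl64h 14 genes rose and 5 fell, against 12.8% and 11.2% of all probe sets (24% together), and without VPA64h replicate 3 this came to 12 genes in place of 19. The median was 0.12 beside 0.00 for all, 0.22 when centred on the housekeeping mean (19 rose and 4 fell), 0.36 with Rplp0/Ywhaz centring (28 rose and 2 fell) and -0.0028 with Gapdh centring (7 rose and 6 fell), with all probe sets at 0.10, 0.24 and -0.12. In the same comparison 9 of 13 stellate markers fell and 2 rose, 5 of 12 endothelial genes fell and 1 rose, 2 of 11 Kupffer cell genes fell, and no hepatocyte or lymphocyte gene passed the test. The mean level over the endothelial list was 6.28 to 6.30 in VPA64h and 6.45 to 6.72 in Ctrl64h, and over the Kupffer cell list 5.83 to 6.21 and 6.02 to 6.37. Their part in the differences below was not tested.

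Pfkfb3 was the gene that fell most. It had 8.59, 8.38 and 8.41 in VPA64h, against 9.25, 9.41 and 9.35 in Ctrl64h, without overlap and 1.84-fold lower (-0.88 ± 0.09, adjusted p = 4.48e-06). Hk2 had 7.92, 7.85 and 8.06 in VPA64h, against 8.69, 8.30 and 8.61 in Ctrl64h (-0.59 ± 0.14, adjusted p = 0.00606), and Pdha1 had 10.58, 10.58 and 10.58 in VPA64h, against 11.04, 11.18 and 11.11 in Ctrl64h (-0.53 ± 0.08, adjusted p = 0.000241). The remaining decreases were those of Pfkl, -0.40 (adjusted p = 0.0105, 0.0613 without VPA64h replicate 1), and Tkt, -0.39 (adjusted p = 0.00138).

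Eno2 again was the largest increase, with 8.56, 8.44 and 8.69 in VPA64h, against 7.53, 7.42 and 7.39 in Ctrl64h (1.11 ± 0.14, adjusted p = 3.94e-05), and the only change of at least 2-fold (1% of all probe sets rose and 1.14% fell as much, 2.14% together). Over the 46 genes the arrays of 25 did not overlap between VPA64h and Ctrl64h (37% of all probe sets). Ldhb had 7.79, 7.77 and 7.75 in VPA64h, against 6.91, 6.97 and 6.81 in Ctrl64h, a rise of 0.87 (adjusted p = 1.87e-06), and 0.76 for its second probe set. Pcx had 7.62, 7.69 and 7.88 in VPA64h, against 7.07, 7.03 and 7.11 in Ctrl64h (0.66 ± 0.10, adjusted p = 0.00025). In all 3 genes each VPA64h array lay above each Ctrl64h array. Slc16a3, with 9.28, 9.65 and 9.55 in VPA64h, against 8.79, 8.80 and 8.49 in Ctrl64h, rose by 0.80 (adjusted p = 0.000159), and this differed from its change at 4 h by 0.01 ± 0.17 (adjusted p = 0.977). Pfkm had 9.00, 9.07 and 8.95 in VPA64h, against 8.47, 8.59 and 8.41 in Ctrl64h (0.52 ± 0.08, adjusted p = 0.000329), Mdh1 had 10.72, 10.70 and 10.47 in VPA64h, against 10.16, 10.09 and 10.17 in Ctrl64h (0.49 ± 0.11, adjusted p = 0.00304), and Idh3a rose by 0.50 (adjusted p = 0.000211).

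Pfkp, Tpi1, Idh2 and Idh1, which had risen within 4 h of VPA, were not past the test at 64 h. Tpi1 had 11.22, 11.25 and 11.47 in VPA64h, against 11.12, 11.24 and 11.20 in Ctrl64h, and Idh1 had 9.53, 9.75 and 9.72 in VPA64h, against 9.71, 9.80 and 9.77 in Ctrl64h. The arrays overlapped, with differences of 0.12 ± 0.11 and -0.09 ± 0.11 (adjusted p = 0.472 and 0.598). Pfkp had 10.10, 10.10 and 9.98 in VPA64h and Idh2 had 9.06, 9.30 and 9.14 in VPA64h, with differences of -0.10 ± 0.09 and 0.14 ± 0.09 from Ctrl64h (adjusted p = 0.455 and 0.314), both with overlapping arrays. Pdk4, with 8.33, 8.09 and 8.08 in VPA64h, differed from Ctrl64h by 0.33 ± 0.13 without overlap (adjusted p = 0.0898).

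**Figure D4:**
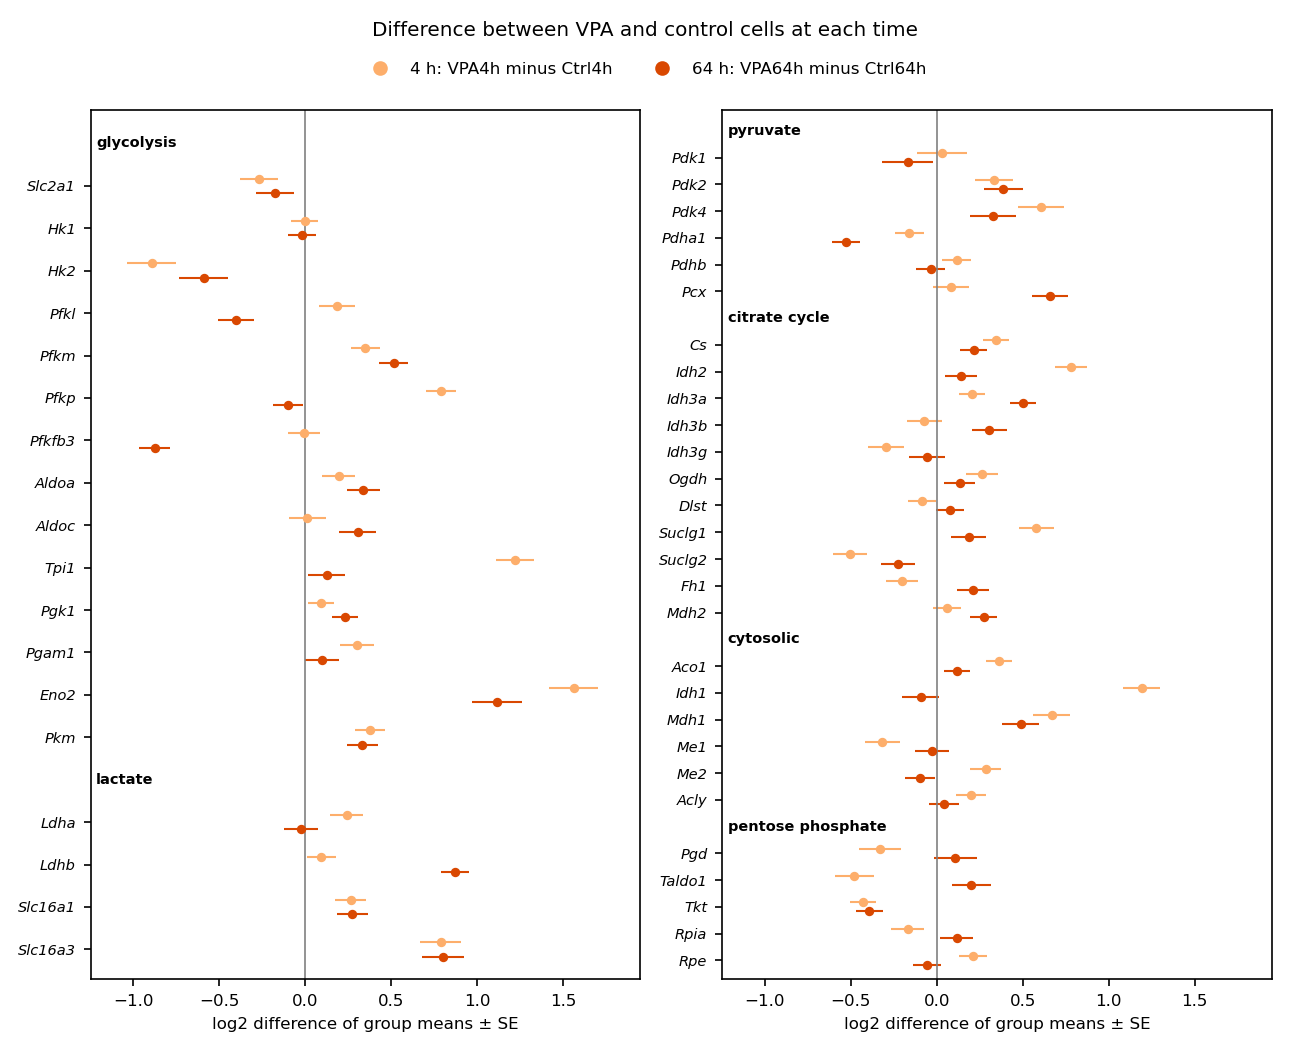
Points give the log2 difference between VPA and untreated cells and bars its standard error, at 4 h (light orange) and at 64 h (dark orange). Tpi1, Pfkp, Idh2 and Idh1 lie right of 0 at 4 h (0.78 to 1.22) and near 0 at 64 h, Pfkfb3 lies left of 0 at 64 h only, Ldhb and Pcx right of 0 at 64 h, and Eno2 right of 0 at both times.

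The VPA comparisons at 4 h and 64 h share no arrays. Of the 46 genes, 7 rose at both times (Pfkm, Eno2, Pkm, Slc16a1, Slc16a3, Pdk2 and Mdh1), 2 fell at both (Hk2 and Tkt), 13 passed the test at 4 h alone, 10 at 64 h alone and 14 at neither. None rose at one time and fell at the other. The shares of all probe sets with these joint calls were not counted, so these counts are not set against the rest of the array. Of the 7, Slc16a1 and Pdk2 were not past the test without several single arrays (adjusted p up to 0.24 and 0.167 at 4 h, without VPA4h replicate 3 in both, and up to 0.158 and 0.0984 at 64 h, without VPA64h replicate 3 in both), nor Pkm at 64 h without VPA64h replicate 3 (0.0605). With the replicate number as a block on the arrays compared, Slc16a1 had an adjusted p of 0.0772 at 4 h and 0.056 at 64 h, and Pdk2 of 0.0539 at 64 h, and with the block on all arrays Pdk2 had 0.0592 at 4 h. With Gapdh centring the change of Slc16a1 at 4 h turned to -0.067. The second probe set of Pkm gave 0.26 and 0.27 (adjusted p = 0.075 and 0.0526). The difference between both VPA effects, the effect at 64 h minus that at 4 h, was itself tested and was past the test for 11 genes, 4 positive and 7 negative, beside 7.54% and 8.33% of all probe sets (15.9% together), and at 2-fold or more for none positive and 2 negative (Tpi1 and Idh1, beside 0.893% and 1.7%, 2.59% together). The median over the 46 genes was -0.0023, beside 0.03 for all. With Gapdh centring 12 were positive and 4 negative, 8 of them among the 11. The negative ones were Idh1 (-1.28 ± 0.15, adjusted p = 3.77e-05), Tpi1 (-1.10 ± 0.15, adjusted p = 0.000163), Pfkp (-0.89 ± 0.12, adjusted p = 0.000129), Pfkfb3 (-0.87 ± 0.13, adjusted p = 0.000245), Idh2, Pfkl and Pdha1, and the positive ones Ldhb (0.78 ± 0.12, adjusted p = 0.000274), Taldo1, Pcx and Fh1. Of the genes that passed the test at a single time, those outside this list are not shown to differ between the times. Pdha1 and Fh1 were near the threshold (adjusted p = 0.0452 and 0.0435), and leaving out single arrays took them to as much as 0.115 (without VPA4h replicate 2) and 0.111 (without Ctrl4h replicate 2).

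Within the VPA cultures most genes also climbed with time. In VPA64h against VPA4h 32 genes rose and 6 fell, against 23.2% and 27.1% of all probe sets (50.4% together), with a median of 0.59 beside -0.08 for all. In the same comparison 7 of 12 endothelial genes, 5 of 9 lymphocyte genes, 3 of 11 Kupffer cell genes and 3 of 12 hepatocyte genes fell and none rose, and their part in the changes was not tested. Centred on the housekeeping mean 32 rose and 5 fell, with Rplp0/Ywhaz centring 23 and 12, and with Gapdh centring 23 and 13, with all probe sets at -0.06, -0.43 and -0.43. For 37 genes the VPA64h and VPA4h arrays did not overlap (57.1% of all probe sets). Those of at least 2-fold were 9, all upwards (5.26% of all probe sets rose and 2.29% fell as much, 7.55% together): Pfkm, Ldhb, Slc16a3, Pdk4, Pcx, Suclg2, Fh1, Idh1 and Mdh1. Fh1 had 9.90, 9.97 and 9.93 in VPA64h, against 8.73, 8.88 and 8.53 in VPA4h (1.22 ± 0.09, adjusted p = 2.84e-08), where the untreated cells had gained 0.81. Suclg2 had 8.45, 8.70 and 8.69 in VPA64h, against 7.31, 7.63 and 7.47 in VPA4h (1.14 ± 0.10, adjusted p = 1.26e-07), beside 0.86 in untreated cells. Ldhb had 7.79, 7.77 and 7.75 in VPA64h, against 6.56, 6.43 and 6.34 in VPA4h, 2.5-fold (adjusted p = 3.63e-09), and Pcx had 7.62, 7.69 and 7.88 in VPA64h, against 6.51, 6.44 and 6.17 in VPA4h, 2.56-fold (adjusted p = 3.54e-08). In all 4 genes the lowest VPA64h array lay above the highest VPA4h array. Ldha had 12.07, 12.23 and 12.30 in VPA64h, against 11.29, 11.58 and 11.37 in VPA4h (0.79 ± 0.10, adjusted p = 6.17e-06), and Me2 had 8.15, 8.13 and 8.34 in VPA64h, against 7.44, 7.52 and 7.33 in VPA4h (0.78 ± 0.09, adjusted p = 2.55e-06). Rpia fell, with 6.83, 6.80 and 7.04 in VPA64h, against 7.51, 7.70 and 7.72 in VPA4h (-0.75 ± 0.10, adjusted p = 8.61e-06), again without overlap. By contrast Pfkp differed by 0.11 ± 0.09 (adjusted p = 0.312), Eno2 by -0.03 ± 0.14 (adjusted p = 0.874), and Pfkfb3 rose by 0.26, a call lost without VPA4h replicate 1, VPA4h replicate 2 or VPA64h replicate 1 (adjusted p = 0.0797, 0.109 and 0.12), and turned to -0.089 with Rplp0/Ywhaz and with Gapdh centring.

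With the probe sets used, Dlst, Hk1 and Aldoc passed the test in none of the 7 comparisons. Their group means lay between 9.17 and 9.29, between 12.21 and 12.29, and between 5.73 and 6.03. The other probe set of Hk1 rose in VPA4h against Ctrl4h (0.69, adjusted p = 7.66e-05) and fell in VPA64h against VPA4h (-0.42, adjusted p = 0.00218). In the difference of the VPA effects that probe set gave -0.51 (adjusted p = 0.0203).

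Of 19 further glycolysis and gluconeogenesis genes 6 rose and 8 fell in Ctrl64h against Ctrl4h, beside 25% and 31.6% of all tested probe sets, with a median of -0.19 beside -0.09. The genes that fell included liver forms, the transporter Slc2a2, the pyruvate kinase Pklr and the gluconeogenic Fbp1, G6pc and Pck1, by 0.28 to 0.49. Of the 12 hepatocyte markers 5 fell in the same comparison, 7 were not past the test and none rose, and the part of hepatocytes in this was not tested. Eno3, the muscle enolase, rose by 2.56 in Ctrl64h against Ctrl4h (adjusted p = 5.73e-10), and fell by 1.85 in VPA64h against Ctrl64h (adjusted p = 2.27e-07), opposite in sign to Eno2. Pfkfb2, a relative of Pfkfb3, rose by 1.31 in VPA4h against Ctrl4h (adjusted p = 9.21e-08), and Slc2a3, the neuronal glucose transporter, by 1.23 in VPA64h against Ctrl64h (adjusted p = 3.3e-07).

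Of 17 further genes of pyruvate use, the citrate cycle and its carriers 15 rose and none fell in Ctrl64h against Ctrl4h (25% and 31.6% of all tested probe sets), with a median of 0.77. They included Pdk3 (2.05, a pyruvate dehydrogenase kinase), Mpc1 (1.07, a subunit of the mitochondrial pyruvate carrier), Sdha (1.05, of succinate dehydrogenase) and Slc16a7 (1.26, a pyruvate transporter of the cell membrane). Slc16a7 fell by 1.05 in VPA64h against Ctrl64h (adjusted p = 1.03e-06). Of 6 further pentose phosphate genes 2 rose and 1 fell (median -0.06), with Prps2, which makes phosphoribosyl pyrophosphate from ribose phosphate, at 2.16 (adjusted p = 9.14e-10). Of 8 genes of glutamine and aspartate metabolism 2 rose and 4 fell in Ctrl64h against Ctrl4h. In VPA64h against Ctrl64h 5 of them rose and none fell, beside 12.8% and 11.2% of all tested probe sets. There Slc38a1 (an amino acid carrier) rose by 0.95 and Got1 (cytosolic aspartate aminotransferase) by 0.72.

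Of 17 regulators of these genes none rose and 6 fell in Ctrl64h against Ctrl4h, a share of falls near the 31.6% of all tested probe sets that fell, while their median was 0.02, or -0.35 and -0.54 with Rplp0/Ywhaz and Gapdh centring. They were led by Myc, an activator of glycolysis genes, at -2.31 (adjusted p = 1.23e-09), and with Hif1a, the oxygen-regulated factor, at -0.22 (adjusted p = 0.0166). In VPA4h against Ctrl4h 7 rose and 2 fell, beside 11.5% and 9.96% of all tested probe sets (median 0.15, turned to -0.18 with Gapdh centring). Among them were Foxo1, a factor held back by insulin signalling, at 1.16 and Txnip, which restrains glucose uptake, at 0.87 (adjusted p = 5.52e-07 and 1.68e-05). Of 11 hypoxia targets outside carbon metabolism 6 rose and 2 fell in Ctrl64h against Ctrl4h (25% and 31.6% of all tested probe sets). In Ctrl16h against Ctrl4h 1 rose and 3 fell (12.8% and 7.32%), and in Ctrl64h against Ctrl16h 8 rose and none fell (19.2% and 23.9%), among them Bnip3 (1.61) and Bnip3l (1.57), which mark mitochondria for removal, and P4ha1 (1.29), a collagen prolyl hydroxylase subunit, whereas Car9, a carbonic anhydrase, stood at -0.18 ± 0.10 (adjusted p = 0.169). In VPA64h against Ctrl64h 1 of these 11 fell (Vegfa, -0.60, adjusted p = 0.000522) and none rose, beside 11.2% and 12.8% of all tested probe sets.

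Gapdh could be measured only through 25 probe sets that it shares with its pseudogenes. In Ctrl64h against Ctrl4h all 25 rose (median 0.62), as they did in Ctrl16h against Ctrl4h (median 0.51). In VPA4h against Ctrl4h 24 rose (median 0.35), and in VPA64h against Ctrl64h none passed the test (median 0.16). These probe sets are not independent measures of the gene, so their counts are not set against the rest of the array. Sharing of probes may also touch the 7 genes with several probe sets (Hk1, Pgk1, Pgam1, Pkm, Ldhb, Suclg2 and Me1), since highly expressed metabolic genes have near-identical copies in the genome. Pgk1 and Pgam1 had 2 probe sets each with identical values. Every change of these genes past the test had the same direction in the gene's other probe sets.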

How the data were processed

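RNA from each of the 14 cultures was hybridised to an Affymetrix Mouse Gene 1.0 ST array. The authors deposited log2 values made by RMA, with GeneSpring GX named in the methods and Affymetrix Expression Console in the submitters' processing notes, and the settings are not given in the sources used here. Quantile normalisation within RMA makes levels relative to the rest of the array. Of 35557 probe sets, 21789 had 1 gene symbol, 1621 several and 12147 none in the platform annotation, and the 23410 with a symbol were tested. All 14 arrays were fitted with limma 3.58.1 in R 4.3.3 with a mean per group, moderated with eBayes (residual df 9, prior df 6.52), with Benjamini-Hochberg adjustment over the tested probe sets. The code of the fit was first run on simulated data with independent noise and few changed probe sets. That setting differs from these data, so it does not measure the error rates here. The methods' filter of at least 2-fold was counted separately.

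Values on every array are given for the 19 genes that changed at least 2-fold past the test in any comparison. Of other lists up to 4 genes with large changes are named, and the liver forms of glycolysis genes, Hif1a, Vegfa, Car9 and Got1 were added after their values were seen. The members and lists were chosen with earlier results of these data known. The study describes separate isolations within each group, and does not say whether groups shared an isolation. Same-numbered VPA and untreated arrays deviated together (correlation of deviations 0.14 to 0.28 at 4 h and 0.16 to 0.17 at 64 h), so the numbers paired the samples there, and the replicate block was fitted as an alternative. Between times the same was seen for Ctrl4h and VPA64h (0.11 to 0.18), which no comparison sets against each other. For Ctrl4h and Ctrl64h these correlations were 0.02 to 0.11, for VPA4h and Ctrl64h 0.04 to 0.13, and for VPA4h and VPA64h -0.01 to 0.23. Pairs with Ctrl16h ran from -0.24 to 0.19. Whether the numbers also pair samples between times is therefore not settled. Alternatives changed the scaling, the probe sets tested, the moderation and the arrays included.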

Additional observations from a re-analysis of the deposited data

Results flagged for a closer look

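The effect of VPA at 64 h minus that at 4 h was past the test (limma, adjusted over all tested probe sets) for 11 of the 46 genes, and these are the results singled out because an effect differed between the times. In each case the value is a difference of log2 differences, with n = 3 arrays a group, and its sign says whether the VPA effect was higher (positive) or lower (negative) at 64 h.

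Genes with a lower effect at 64 h were Idh1 (-1.28, adjusted p = 3.77e-05), Tpi1 (-1.10, 0.000163), Pfkp (-0.89, 0.000129), Pfkfb3 (-0.87, 0.000245), Idh2 (-0.64, 0.00316), Pfkl (-0.59, 0.0129) and Pdha1 (-0.37, 0.0452). For Idh1, Tpi1, Pfkp and Idh2 the effect at 4 h was an increase (1.19, 1.22, 0.79 and 0.78) in cells whose untreated level later rose by 2.36, 1.96, 1.00 and 1.47, while Pfkfb3, Pfkl and Pdha1 had decreases at 64 h (-0.88, -0.40 and -0.53).

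Genes with a higher effect at 64 h were Ldhb (0.78, adjusted p = 0.000274), Taldo1 (0.68, 0.00803), Pcx (0.58, 0.0136) and Fh1 (0.41, 0.0435). Ldhb and Pcx rose with VPA at 64 h (0.87 and 0.66), Taldo1 fell at 4 h (-0.48) and stood at 0.20 at 64 h, and Fh1 was past the test at neither time. Pdha1 was not past the test in this difference when any one of 9 arrays was left out, nor Fh1 for any one of 10, of the 12 arrays that enter it. The second probe set of Ldhb gave 0.66 with an adjusted p of 0.12.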

How the results depend on the processing

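Directions and calls were compared between the values reported and each alternative, with the tool limma and Benjamini-Hochberg adjustment throughout. Of the 188 changes past the test among the 46 genes, 164 were past it in the same direction in every alternative on all arrays that kept the scale, and 136 with every array left out in turn. The counts of genes past the test without single arrays were 13 to 25 in Ctrl16h against Ctrl4h (29 with all arrays), 21 to 28 in Ctrl64h against Ctrl16h (31), 37 to 39 in Ctrl64h against Ctrl4h (38), 18 to 22 in VPA4h against Ctrl4h (22), 12 to 19 in VPA64h against Ctrl64h (19), 34 to 37 in VPA64h against VPA4h (38) and 9 to 12 for the difference of the VPA effects (11). Requiring at least 2-fold beside the adjusted p, or beside the one-way analysis of variance that the methods name (in which 43 of the 46 genes differed among groups), left 1, 7, 12, 3, 1, 9 and 2 genes in the same order.

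Centred on the mean of the housekeeping genes, an alternative chosen after seeing the data, 16 genes were past the test in Ctrl16h against Ctrl4h (9 rose and 7 fell), and with Rplp0/Ywhaz centring 30 were in VPA64h against Ctrl64h. With Gapdh centring 16 rose and 7 fell in Ctrl64h against Ctrl16h, and for the difference of the VPA effects 12 were positive and 4 negative. The turned signs listed next are those of genes past the test before or after centring. Turns between values that both missed the test also occurred and are not listed. With Rplp0/Ywhaz centring the sign turned in Ctrl16h against Ctrl4h for Hk1 (-0.40), Aldoc (-0.34), Pgk1 (-0.032), Ldha (-0.062), Pdha1 (-0.034), Pcx (-0.0074), Cs (-0.11), Idh3b (-0.26), Ogdh (-0.037), Suclg1 (-0.059), Aco1 (-0.27), Acly (-0.11), Pgd (-0.38), Tkt (-0.064), Rpe (-0.15). With Rplp0/Ywhaz centring the sign turned in Ctrl64h against Ctrl4h for Aco1 (-0.24). With Rplp0/Ywhaz centring the sign turned in VPA64h against VPA4h for Pfkfb3 (-0.089), Aldoa (-0.0027), Pgam1 (-0.017), Pdhb (-0.051), Cs (-0.32), Dlst (-0.31). With Gapdh centring the sign turned in Ctrl16h against Ctrl4h for Hk1 (-0.40), Aldoc (-0.35), Pgk1 (-0.035), Ldha (-0.066), Slc16a1 (-0.30), Pdk4 (-0.41), Pdha1 (-0.037), Pcx (-0.011), Cs (-0.11), Ogdh (-0.040), Suclg1 (-0.062), Aco1 (-0.27), Acly (-0.11), Pgd (-0.38), Tkt (-0.067), Rpe (-0.15). With Gapdh centring the sign turned in Ctrl64h against Ctrl4h for Aldoa (-0.35), Pgk1 (-0.099), Pgam1 (-0.021), Eno2 (-0.14), Ldhb (-0.011), Pdk2 (-0.036), Pdhb (-0.11), Cs (-0.39), Idh3a (-0.13), Idh3b (-0.083), Idh3g (-0.031), Mdh2 (-0.097), Aco1 (-0.43). With Gapdh centring the sign turned in VPA4h against Ctrl4h for Aldoc (-0.32), Pgk1 (-0.24), Pgam1 (-0.029), Slc16a1 (-0.067), Pcx (-0.25), Mdh2 (-0.27), Me2 (-0.048). With Gapdh centring the sign turned in VPA64h against VPA4h for Pfkfb3 (-0.089), Aldoa (-0.0023), Aldoc (-0.24), Pgam1 (-0.016), Pdhb (-0.050), Cs (-0.32), Dlst (-0.31). With the probe sets of a gene averaged, Hk1 in VPA4h against Ctrl4h came to 0.34, past the test. No sign was turned by the other alternatives or by leaving out an array for a change past the test.

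With the replicate number as a block on all arrays the counts were 28, 31, 38, 21, 20, 38 and 12 in the order above, with Rpe in Ctrl16h against Ctrl4h (adjusted p = 0.0842), Pdk1 in Ctrl64h against Ctrl16h (0.058) and Pgam1 (0.0506) and Pdk2 at 4 h of VPA losing their call, and Aldoc in Ctrl64h against Ctrl16h (0.0448), Ogdh at 4 h of VPA (0.0189), Aldoc at 64 h of VPA (0.0384) and Suclg1 in the difference of the VPA effects (0.0285) passing the test. On the arrays of the groups compared alone, where the numbers paired the samples, the block gave 22 genes in VPA4h against Ctrl4h (15 rose and 7 fell) and 15 in VPA64h against Ctrl64h (10 rose and 5 fell). In that fit Pgam1 (adjusted p = 0.0502) and Slc16a1 lost their call at 4 h, Pgk1 (0.0939), Idh3b (0.0673), Mdh2 (0.0723), Slc16a1 and Pdk2 lost theirs at 64 h, while Idh3g (-0.29, adjusted p = 0.0412) and Pgd (-0.33, 0.0359) at 4 h and Pdk4 (0.33, 0.0329) at 64 h passed the test, and no other call of these 2 comparisons changed. With 2 or 3 arrays a group and a within-group standard deviation of 0.05 to 0.21, small differences, in particular those that rest on Ctrl16h, are poorly resolved, and a p that misses the threshold does not show that values were alike.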
